A study of Rattus norvegicus with 32 samples.

Results

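The sciatic nerve, which serves the hindlimb, and the radial nerve, which serves the forelimb, were compared within 8 adult rats. The comparison took the 16 arrays of the 8-month animals out of the 32 arrays of the series, 1 array per nerve and animal, and subtracted the radial value from the sciatic value of the same animal over all 31042 non-control probe sets. The other 16 arrays, from 8 rats aged 24 months, are used below where an adult difference is set beside its value at that age. They also enter 2 alternative fits, of all 32 arrays and of the arrays low in muscle transcripts. All animals were male Wistar rats, with no treatment named in the labels, kept in pairs and killed by bleeding under isoflurane. Each nerve piece was roughly 1 cm long, the sciatic one from the mid-thigh and the radial one from the arm. Values are log2 intensities, so a difference of 1 is a 2-fold difference, and a positive difference means higher in the sciatic nerve. A probe set was called when its limma adjusted p lay under 0.05. Errors of differences are the moderated standard errors of that fit to the 8 animals, which draw in part on the spread of all probe sets.

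A piece of peripheral nerve holds axons, whose cell bodies lie in the spinal cord and ganglia, Schwann cells that ensheath them, and fibroblasts, perineurial cells, blood vessels, macrophages, mast cells and fat. Cells of the limbs and trunk keep a record of where they arose in the embryo. The HOX genes, which lie in 4 clusters and encode homeodomain transcription factors, are switched on along the body axis in the order in which they lie on the chromosome, so that genes of low number mark the head and neck and genes of high number mark the lumbar and tail levels. The T-box factor Tbx5 specifies the forelimb, and Pitx1 and Tbx4 specify the hindlimb.

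For 3 of the 8 adult animals (replicates 4, 5 and 6) the source name of each array names the other nerve than its title and tissue label do, and the title was used. In these 3 animals the array titled sciatic exceeded the array titled radial in Hoxc9 by 3.39, 3.05 and 3.49 and differed from it in Tbx5 by -1.51, -1.60 and -2.30, within the range of the other 5 animals for Hoxc9 (2.98 to 4.09) and Tbx5 (-2.63 to -1.46). Array correlations lay between 0.981 and 0.996 and array medians between 7.94 and 7.97. The Schwann cell markers Mbp and Pmp22, which encode proteins of compact myelin, lay at 14.11 or higher in every adult array of both nerves. Skeletal muscle transcripts were also present, and in unequal amount. The mean of 18 muscle genes per array ran from 6.50 to 9.17 (median 7.10) in the sciatic nerve and from 6.70 to 12.02 (median 10.16) in the radial nerve, and was lower in the sciatic nerve in 8 of 8 animals, by 0.20 to 4.39. The mean of 17 adipocyte genes ran from 10.94 to 12.15 and from 11.24 to 12.41 and was lower in the sciatic nerve in 4 of 8. The main groups of genes are therefore also given with the muscle mean of each array added as a covariate, or in the 7 sciatic and 3 radial adult arrays whose muscle mean did not exceed 9.

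In all, 2786 probe sets (8.97%) were called, 1672 higher (5.39%) and 1114 lower (3.59%) in the sciatic nerve. The median size of a called difference was 0.303, and 161 called probe sets differed by more than 1, of which 44 were higher and 117 lower. With 1 probe set standing for each gene, 1351 of 13435 genes (10.1%) were called, 702 higher (5.23%) and 649 lower (4.83%). Of the 1351, 916 had the same sign in 8 of 8 animals. The calls were made on these same differences, so this agreement is in part built in. The values of the 8 sciatic arrays did not overlap with those of the 8 radial arrays in 208 genes (1.55%). With the muscle covariate the count fell to 67 probe sets and 43 genes (0.32%, 0.127% higher and 0.194% lower). The median standard error of a gene rose from 0.0552 to 0.0877. Of the 1351 called genes 1339 kept their sign, but that fit used the same arrays, so kept signs are no separate evidence. In the arrays low in muscle transcripts 515 probe sets and 239 genes (1.78%, 0.759% higher and 1.02% lower) were called. Without the 3 animals whose labels disagree, 1518 probe sets were called. In a bulk sample, fewer cells of a type and less RNA per cell cannot be told apart.

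HOX genes differed between the nerves in both directions. Of 22 HOX genes measured, 4 were higher in the sciatic nerve (Hoxc9, Hoxc8, Hoxa10 and Hoxc4), 7 were lower (Hoxb2, Hoxb4, Hoxa2, Hoxa4, Hoxb5, Hoxd3 and Hoxa5) and 11 were not called, against 10.1% of all genes called. By paralog group, which is the number in the gene name, 0 of 5 genes of groups 1 to 3 were higher and 3 were lower, 2 of 11 genes of groups 4 to 8 were higher and 4 lower, and 2 of 6 genes of groups 9 to 13 were higher and 0 lower. In groups 4 to 8 the number higher was 1 without any 1 animal other than replicate 5, and the number lower was 2 without replicate 1, 2, 4 or 7. With the muscle covariate 2 HOX genes were called higher and 2 lower, and in the arrays low in muscle 3 and 2.

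Hoxc9 (probe set 1382182_PM_at), which marks thoracic and more posterior levels, gave the largest difference of any gene. Its sciatic values lay between 8.41 and 8.78 (median 8.68) and its radial values between 4.69 and 5.72 (median 5.16). Every sciatic array was above every radial array, and the radial values came close to the dim end of the array, where 5% of probe sets had means under 4.41. The difference was 3.50 ± 0.12 (11.3-fold, adjusted p = 5.13e-07), between 2.98 and 4.09 in single animals. It was 3.58 with the muscle covariate, 3.63 in the arrays low in muscle and 3.61 without the 3 animals with disagreeing labels, and it was called in each. Its neighbour Hoxc8 (probe set 1371281_PM_at) lay between 6.52 and 7.28 (median 6.66) in sciatic and between 4.68 and 5.38 (median 5.07) in radial nerves. The groups again did not overlap, with a difference of 1.77 ± 0.09 (adjusted p = 1.69e-05), and it too was called in these 3 fits.

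Hoxa10, a gene of lumbar levels, was more variable. It lay between 5.86 and 8.64 (median 7.17) in sciatic and between 5.17 and 6.09 (median 5.37) in radial nerves. It was higher in the sciatic array of 8 of 8 animals, but the lowest sciatic array lay below the highest radial array. The difference was 1.75 ± 0.27 (adjusted p = 0.00693) and ran from 0.30 to 3.47 between animals, and with the muscle covariate it was 1.38 with an adjusted p of 0.208. Hoxa11-as, the antisense transcript of its neighbour in the cluster, was higher by 1.20 ± 0.14 (adjusted p = 0.00209), and Hoxc4 by 0.34 ± 0.09 (adjusted p = 0.0428, up to 0.102 when any of replicates 1, 2, 3, 4, 6, 7 or 8 was left out).

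Anterior HOX genes were higher in the radial nerve. Hoxb2 lay between 7.79 and 8.16 (median 7.93) in sciatic and between 8.69 and 9.47 (median 9.07) in radial nerves, and Hoxb4 between 7.12 and 7.50 (median 7.37) and between 8.10 and 8.58 (median 8.41). Both genes separated the nerves without overlap in all 8 animals. Hoxb2 was lower in the sciatic nerve by 1.10 ± 0.06 (adjusted p = 1.62e-05) and Hoxb4 by 1.02 ± 0.06 (adjusted p = 5.23e-05), and both were called with the muscle covariate, in the arrays low in muscle and without the 3 animals. Hoxa2 fell by 0.58 ± 0.11 and Hoxa4 by 0.50 ± 0.08, with Hoxa4 not overlapping between nerves. The remaining called genes differed less. Hoxd3 and Hoxb5 both fell by 0.34 and Hoxa5 by 0.25, and the call of Hoxb5 was lost without replicate 1, 2, 4, 7 or 8 (adjusted p up to 0.0601) and that of Hoxa5 without replicate 1, 2, 3, 4, 6 or 7 (up to 0.0842). A second probe set of Hoxd3 showed 0.01 ± 0.07.

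The order of the differences followed the order of the genes in 1 of the 4 clusters, taking gene order from the rat assembly GRCr8. Along the HoxA cluster the difference rose at every step, from -0.58 for Hoxa2 through -0.50 for Hoxa4, -0.25 for Hoxa5, -0.09 for Hoxa7 and 0.02 for Hoxa9 to 1.75 for Hoxa10. In the HoxC cluster Hoxc4 and Hoxc5 stood at 0.34 and 0.15, followed by Hoxc8 and Hoxc9 with the highest values. The HoxB cluster ran from Hoxb2 and Hoxb4, the lowest, to Hoxb7 at 0.21 and Hoxb13 at 0.05, neither of them called. Hoxb13 was dim, with a mean over the adult arrays of 4.76. The order was broken by Hoxb3 at -0.02 ± 0.08, also not called. It was broken as well from Hoxb5 (-0.34) to Hoxb6 (-0.37) and from Hoxb7 to Hoxb13. In the HoxD cluster no gene exceeded 0.34 in size. Hoxd9 and Hoxd10, genes of lumbar levels, were not called, with differences of -0.18 ± 0.07 and -0.26 ± 0.09, and were lower in the sciatic nerve in 6 and 7 of 8 animals.

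**Figure D1:**
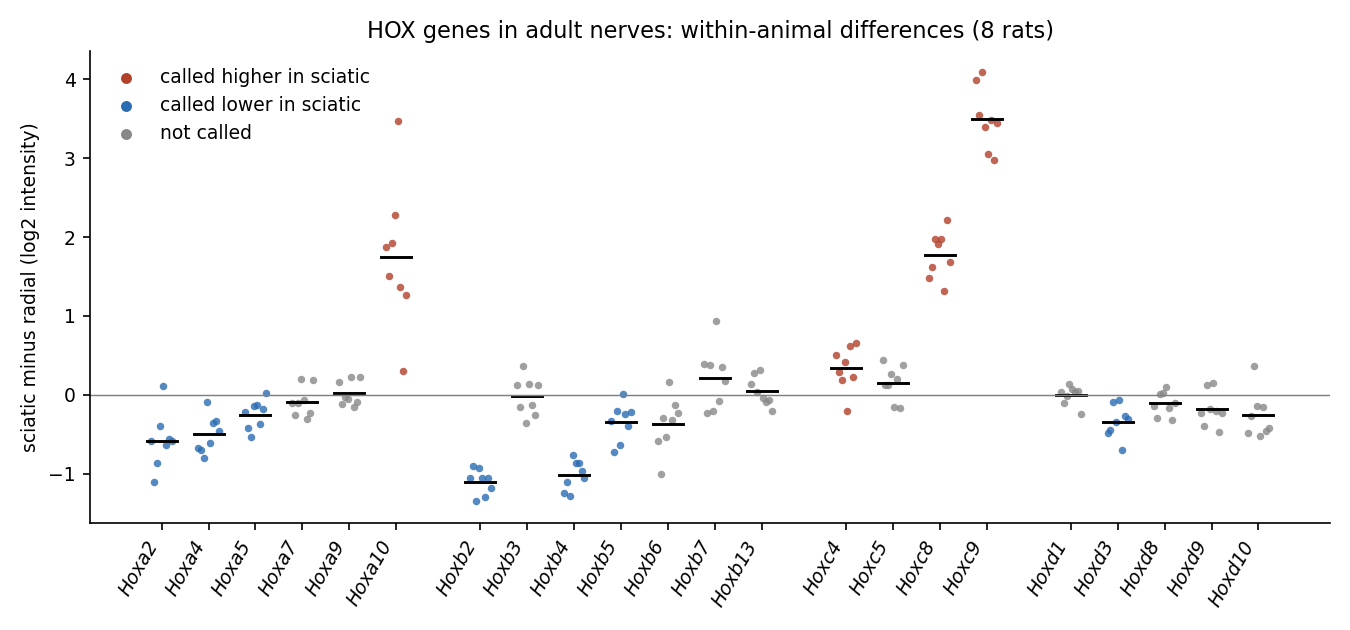
Sciatic minus radial difference in log2 intensity (y axis) of 22 HOX genes in each of 8 adult rats (points) with the mean (bar), in cluster order. Hoxc9, Hoxc8 and Hoxa10 stand highest, at 3.50, 1.77 and 1.75, and Hoxb2 and Hoxb4 lowest, at -1.10 and -1.02.

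Of 8 cofactors of the HOX proteins 3 were lower in the sciatic nerve and 0 higher, against 4.83% and 5.23% of all genes. Meis1, which encodes a homeodomain partner of HOX proteins, lay between 8.02 and 8.96 (median 8.36) in sciatic and between 9.11 and 9.83 (median 9.36) in radial nerves, with no overlap. It was lower in the sciatic nerve by 1.02 ± 0.13 (adjusted p = 0.00349), and its relatives Meis2 and Pbx3 by 0.55 ± 0.12 and 0.17 ± 0.04, the last 2 losing the call without some single animals (replicates 1, 3 or 8 for Meis2, and 1, 2, 3, 4, 7 or 8 for Pbx3, with adjusted p up to 0.0621 and 0.0719). With the muscle covariate Meis1 stood at -0.82 and was not called (adjusted p = 0.144), whereas it was called in the arrays low in muscle (-1.06, adjusted p = 0.000896). The other 5 cofactors were not called and lay between -0.07 and 0.05. As a list the cofactors had 0 called members with the covariate and 1 in the arrays low in muscle.

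Of 18 limb factors, 2 were higher, 2 were lower and 14 were not called, that is 22.2% called against 10.1% of all genes. Adding the muscle covariate left 0 higher and 1 lower, and in the arrays low in muscle 2 and 1. Without replicate 5 the number higher was 4, without replicate 3, 4 or 8 it was 1, and the number lower was 1 without replicate 2, 3 or 8. Tbx5 lay between 4.46 and 5.00 (median 4.62) in sciatic and between 5.93 and 7.30 (median 6.54) in radial nerves. Every radial array was above every sciatic array, and the sciatic values lay near the dim end. The difference was -1.90 ± 0.12 (3.72-fold lower, adjusted p = 7.22e-05), and it remained called with the muscle covariate (-2.01), in the arrays low in muscle (-1.85) and without the 3 animals (-1.95). The hindlimb factor Pitx1 lay between 5.38 and 5.93 (median 5.57) against 4.98 to 5.40 (median 5.10), with a slight overlap. It was higher by 0.48 ± 0.11 (adjusted p = 0.026, up to 0.0636 without replicate 3, 4 or 8), but not called without the 3 animals (0.33, adjusted p = 0.137). Tbx4, the other hindlimb factor, stood near the dim end in both nerves and was not called, at 0.12 ± 0.09. Hand2, a factor of the posterior limb bud, was higher by 0.74 ± 0.12 (adjusted p = 0.00835, and 0.0523 without the 3 animals) and Irx3 lower by 0.37 ± 0.08. The Irx3 call was lost without replicate 2, 3 or 8 (adjusted p up to 0.062). A dimmer probe set of Hand2 (0.01) was not called. Of the dimmer probe sets of Irx3, 1 was called (-0.66, adjusted p = 0.00396) and 1 was not (-0.05). The homeodomain gene Dlx1, in none of these lists, was higher by 1.31 ± 0.06 (adjusted p = 9.07e-06) and by 1.10 to 1.62 in single animals.

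**Figure D2:**
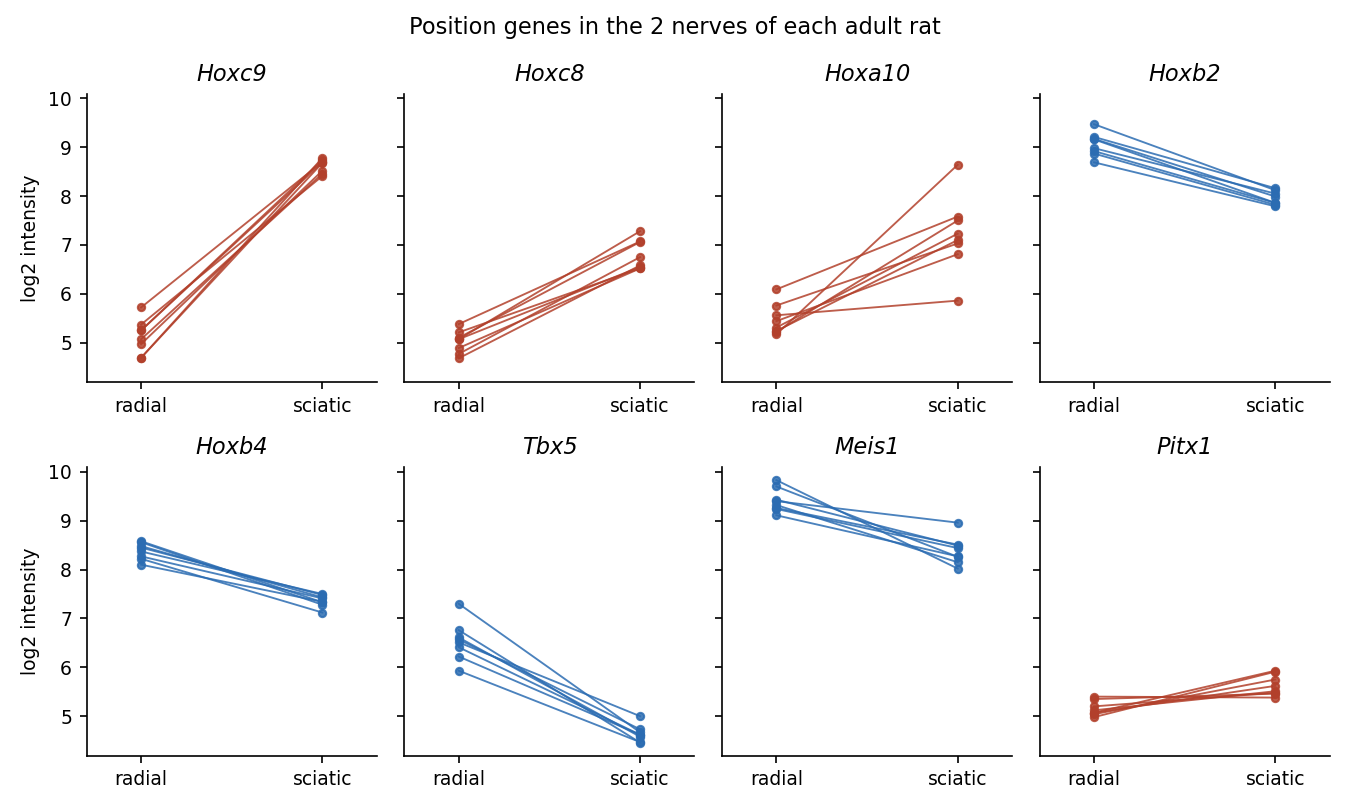
Log2 intensity (y axis) of 8 position genes in the radial and sciatic nerve of each adult rat, joined by a line. Hoxc9, Hoxc8, Hoxb2, Hoxb4, Tbx5 and Meis1 do not overlap between nerves, whereas Hoxa10 and Pitx1 do.

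Contractile genes of smooth muscle were lower in the sciatic nerve. Smooth muscle cells line the arteries that run with a nerve, and pericytes its capillaries. Of 14 genes of these cells, 8 were lower and 0 higher, with a median of -0.34 against 0.00 for all genes (4.83% of which were called lower), and the median of the list was below 0 in 8 of 8 animals (-0.67 to -0.22). The 8 were Actg2 and Acta2 (smooth muscle actins), Myh11 (smooth muscle myosin), Cnn1 (calponin), Lmod1 (leiomodin), Des (desmin, also of skeletal muscle), Cspg4 (a proteoglycan of pericytes) and Abcc9 (a potassium channel subunit). The pericyte genes Pdgfrb, Rgs5, Notch3 and Kcnj8 were not called and lay between -0.13 and 0.09, as was Tagln at -0.12. Between 7 and 8 members were called when any 1 animal was left out.

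Actg2 (probe set 1386869_PM_at) lay between 5.88 and 8.11 (median 7.36) in sciatic and between 8.95 and 10.67 (median 10.33) in radial nerves, and Cnn1 (probe set 1367785_PM_at) between 7.18 and 8.72 (median 8.17) and between 9.84 and 11.28 (median 10.97). In both genes every sciatic array lay below every radial array. The difference of Actg2 was -2.73 ± 0.35 (6.63-fold lower, adjusted p = 0.00341) and that of Cnn1 -2.59 ± 0.29 (6.02-fold lower, adjusted p = 0.00186). Adding the muscle covariate gave -3.25 (adjusted p = 0.0572) and -3.11 (adjusted p = 0.0334), and in the arrays low in muscle -2.87 and -2.67, both called. Replicates 3, 4 and 8, in which the muscle mean differed least between nerves (by 0.20 to 0.46), showed Actg2 differences of -2.69, -1.86 and -3.40 and Cnn1 differences of -2.83, -1.93 and -2.99. Myh11 was lower by 1.02 ± 0.16 (adjusted p = 0.00674), Lmod1 by 0.98 ± 0.14 and Acta2 by 0.72 ± 0.14, and none of these 3 was called with the muscle covariate (-1.12, -0.97 and -0.80, adjusted p of 0.129, 0.141 and 0.192). Over the whole list 1 member was called lower with the covariate and 3 in the arrays low in muscle.

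Genes of skeletal muscle were lower in the sciatic nerve. Of 9 fast-fibre genes 8 were lower and 0 higher (median -2.72), against 4.83% and 5.23% of all genes. Of 18 genes shared by all fibres 8 were lower and 0 higher (median -2.04). Of 10 slow-fibre genes 0 were called (0 at an unadjusted p under 0.05 in limma, median -0.23). Ckm, the muscle creatine kinase, lay between 5.03 and 11.64 (median 7.37) in sciatic and between 6.57 and 14.11 (median 12.95) in radial nerves, and Pvalb, the calcium buffer of fast fibres, between 6.26 and 9.16 (median 6.83) and between 7.66 and 12.82 (median 10.78). The nerves overlapped in both genes, and the spread between animals was wide in the radial nerve. The difference was -3.42 ± 0.63 for Ckm (10.7-fold lower, adjusted p = 0.0131), -3.02 ± 0.72 for Actn3, an actinin of fast fibres (adjusted p = 0.0312), -3.01 ± 0.52 for Pvalb (adjusted p = 0.0102) and -2.93 ± 0.56 for Acta1, skeletal actin. Actn3 was not called without replicate 1, 2, 7 or 8 (adjusted p up to 0.071).

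The within-animal difference of Ckm ran from -8.02 in replicate 1 to -1.54 in replicate 4. Left-out animals moved the counts: without replicate 7 or replicate 2 the fast-fibre count was 2 of 9, without replicate 1 it was 3, without replicate 5, 6 or 8 it was 4, and without replicate 3 it was 5. The shared genes called lower numbered 3 without replicate 1, 2 or 7, 4 without replicate 5 and 5 without replicate 6. When all 32 arrays were fitted together and animals entered as a random effect, 1 gene of each list was called, as was 1 of each without the 3 animals with disagreeing labels. The covariate was built from the shared genes, and the arrays low in muscle were chosen by their mean. Values of muscle genes in those 2 fits are therefore no result about them.

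**Figure D3:**
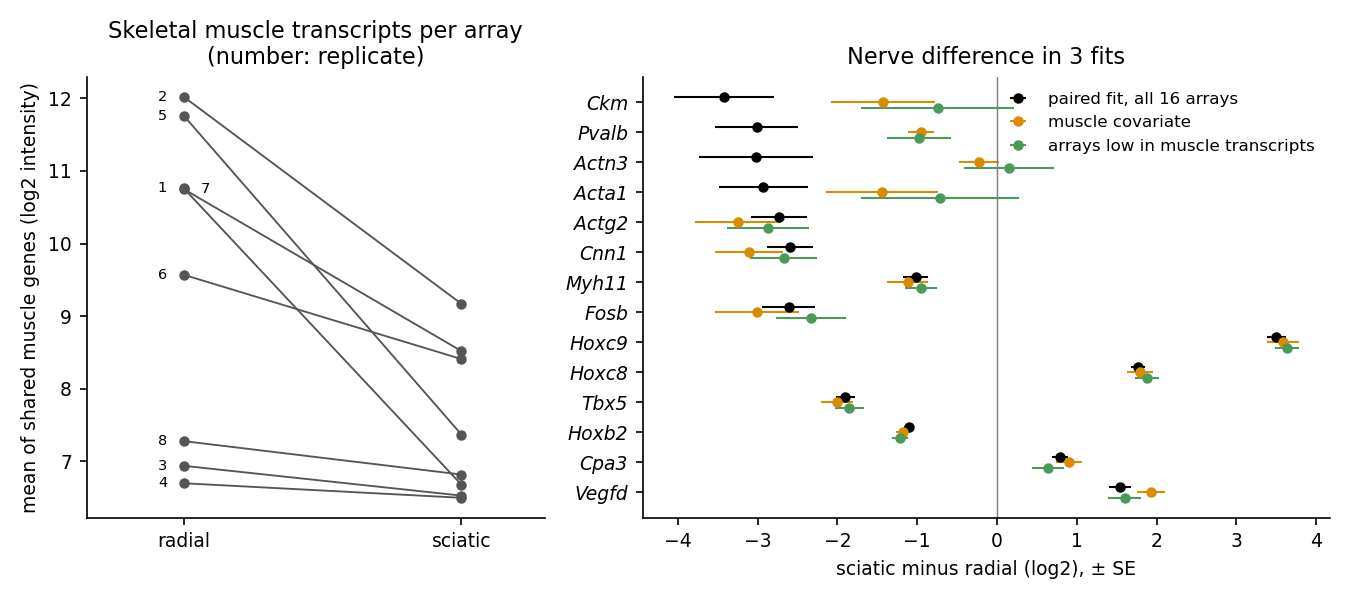
Left, mean log2 intensity of 18 shared skeletal muscle genes in the radial and sciatic array of each adult rat, numbered by replicate. Right, sciatic minus radial difference (log2, bars are standard errors) of 14 genes in the paired fit to all 16 arrays, with the muscle mean as covariate and in the arrays low in muscle. Hoxc9 stands at 3.50, 3.58 and 3.63 and Tbx5 at -1.90, -2.01 and -1.85. Ckm and Acta1 are among the 18 genes whose mean made the covariate and chose the arrays low in muscle.

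Immediate early genes, which are transcribed within minutes of a stimulus, were lower in the sciatic nerve. Of 12 measured, 7 were lower and 0 higher, against 4.83% and 5.23% of all genes. The list median was -0.35, and it was below 0 in 8 of 8 animals (-0.92 to -0.17). Fosb (probe set 1373759_PM_at), a subunit of the AP-1 factor, lay between 6.33 and 7.52 (median 7.06) in sciatic and between 7.71 and 11.62 (median 9.56) in radial nerves. The nerves did not overlap, and the radial values were the more scattered. The difference was -2.61 ± 0.33 (6.09-fold lower, adjusted p = 0.00345), and ran from -4.67 in replicate 6 to -0.80 in replicate 5. Junb was lower by 0.66 ± 0.15, Egr1 by 0.64 ± 0.11 (adjusted p = 0.0104), Ier2 by 0.59 ± 0.11 and Atf3 by 0.48 ± 0.07. Junb was not called without replicate 1, 2 or 8 (adjusted p up to 0.0638). Nr4a1 and Egr2 were lower by 0.36 and 0.14, Egr2 losing its call without any 1 of the 8 animals (adjusted p up to 0.0988), and a second probe set of Egr2 stood at 0.08 ± 0.07. The count was 4 without replicate 1, 2 or 8. Under the muscle covariate 0 of 12 were called at a median of -0.39, and in the arrays low in muscle 1 (Fosb, -2.33, adjusted p = 0.0123).

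Serum response factor binds the CArG box, a run of A and T between CC and GG, and drives both immediate early and smooth muscle genes. In the 250 bases before the annotated start (RefSeq promoters, assembly GRCr8, both strands) a CArG box was present in 1.22% of 11096 measured genes with an entry. It was present in 2 of 7 immediate early genes with an entry, Egr1 and Egr2, and in 0 of 9 smooth muscle and pericyte genes. The window of Egr1 (chr18:26736828-26737077, plus strand) is shown as the one with 2 matches, in capitals.
Egr1: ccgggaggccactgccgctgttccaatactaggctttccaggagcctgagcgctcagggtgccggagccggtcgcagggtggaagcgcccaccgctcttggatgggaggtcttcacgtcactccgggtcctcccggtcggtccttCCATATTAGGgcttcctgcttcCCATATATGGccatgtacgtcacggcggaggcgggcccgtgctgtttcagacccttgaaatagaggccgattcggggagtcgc

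Mast cell genes were higher in the sciatic nerve. Mast cells, which lie along vessels in the endoneurium and epineurium, store histamine and proteases in granules. Of 14 of their genes, 9 were higher and 0 lower, with a median of 0.56 and a median above 0 in 8 of 8 animals (0.14 to 0.83), whereas 5.23% of all genes were called higher. Cpa3, mast cell carboxypeptidase, lay between 11.50 and 12.68 (median 12.34) in sciatic and between 11.10 and 11.98 (median 11.44) in radial nerves, and Fcer1a, the alpha chain of the IgE receptor, between 8.48 and 10.02 (median 9.22) and between 7.63 and 8.56 (median 8.40). The nerves overlapped slightly, but the sciatic array was the higher one in 8 of 8 animals for both. Cpa3 was higher by 0.79 ± 0.10 (1.73-fold, adjusted p = 0.00341) and Fcer1a by 0.96 ± 0.13 (1.95-fold, adjusted p = 0.00397). Kit, the receptor for stem cell factor, was higher by 0.81 ± 0.11 (adjusted p = 0.00512), the chymase Cma1 by 0.69 ± 0.09 (adjusted p = 0.00308), the tryptases Tpsb2 and Tpsab1 by 0.72 ± 0.10 and 0.71 ± 0.10, and the monoamine transporter Slc18a2 by 0.54 ± 0.06. The tryptase genes are close in sequence, so their probe sets may share transcripts. The proteases Mcpt1 and Mcpt4 and the regulators Gata2 and Il1rl1 were not called and lay between -0.09 and 0.02. Mcpt1 and Mcpt4 were dim, with means over the adult arrays of 4.73 and 4.68, so their small differences say little.

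With the muscle covariate the list median was 0.50 with 0 genes called (Cpa3 0.90, adjusted p = 0.0732), and in the arrays low in muscle 0.42 with 1 called (Kit, 0.86, adjusted p = 0.02). Without the 3 animals with disagreeing labels 8 were called at a median of 0.70, and 7 to 9 without any 1 animal; Ms4a2 (0.58) and Hpgds (0.38) were those lost, with adjusted p up to 0.0565 and 0.0878. GATA factors drive mast cell genes, and the letters GATAA (either strand) lay in the 250 bases before the start of 15.7% of 11096 genes and in 6 of 12 mast cell genes with an entry. Of the 7 called mast cell genes with an entry 4 held the letters, and Kit, Tpsb2 and Slc18a2 did not. Mcpt1 and Mcpt4, not called, also held them. The windows of the 4 called genes with the letters are given here to show where the match, in capitals (TTATC on the other strand), lies. They are Cpa3 (chr2:104673238-104673487, minus strand), Cma1 (chr15:33390134-33390383, minus), Fcer1a (chr13:88224680-88224929, minus) and Tpsab1 (chr10:14867303-14867552, minus), all 5′ to 3′ along the gene.
Cpa3: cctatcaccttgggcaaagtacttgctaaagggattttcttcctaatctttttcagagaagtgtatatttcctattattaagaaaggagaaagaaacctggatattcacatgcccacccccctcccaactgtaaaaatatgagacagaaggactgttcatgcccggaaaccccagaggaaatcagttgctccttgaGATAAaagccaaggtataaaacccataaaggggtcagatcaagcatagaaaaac
Cma1: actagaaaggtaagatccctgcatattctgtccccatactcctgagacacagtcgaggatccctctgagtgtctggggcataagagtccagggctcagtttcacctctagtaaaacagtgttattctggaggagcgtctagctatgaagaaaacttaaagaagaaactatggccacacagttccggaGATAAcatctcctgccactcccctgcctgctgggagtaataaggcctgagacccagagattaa
Fcer1a: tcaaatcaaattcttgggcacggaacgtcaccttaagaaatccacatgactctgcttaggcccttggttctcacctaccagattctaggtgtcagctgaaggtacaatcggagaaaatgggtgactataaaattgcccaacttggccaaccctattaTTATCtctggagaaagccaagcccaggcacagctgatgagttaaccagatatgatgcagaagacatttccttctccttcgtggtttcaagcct
Tpsab1: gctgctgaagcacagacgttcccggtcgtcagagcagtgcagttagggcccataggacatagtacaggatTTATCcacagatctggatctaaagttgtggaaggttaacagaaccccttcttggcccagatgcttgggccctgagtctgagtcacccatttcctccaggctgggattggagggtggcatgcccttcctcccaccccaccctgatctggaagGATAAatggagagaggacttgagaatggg

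The mast cell difference was not seen in the other 8 animals, aged 24 months. There the list median was -0.28, 0 of 14 genes were called, and the median was above 0 in 2 of 8 animals. The difference between the ages was tested as an interaction and called for 5 of the 14: Fcer1a (1.21, adjusted p = 0.0495), Cpa3 (1.17, adjusted p = 0.0275), Tpsab1 (1.12, adjusted p = 0.0148), Tpsb2 (1.12, adjusted p = 0.0235) and Cma1 (1.09, adjusted p = 0.0218), against 0.156% of all genes (0.0968% with a positive and 0.0595% with a negative interaction). Within animals Cpa3 differed by 0.34 to 1.33 at 8 months and by -1.47 to 0.11 at 24 months, with no overlap. With the muscle covariate Cpa3 (1.14, adjusted p = 0.0459), Cma1, Tpsab1 and Tpsb2 were still called and Fcer1a was not (adjusted p = 0.0757). With the animal as a random block Cpa3 (adjusted p = 0.0236) and Cma1 (0.0196) were called and Tpsb2 (0.0517), Tpsab1 (0.0767) and Fcer1a (0.0947) were not. Without the animal block the 5 adjusted p values lay between 0.0699 and 0.234, and in the arrays low in muscle between 0.54 and 0.746 with interactions of 0.49 to 0.79.

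**Figure D4:**
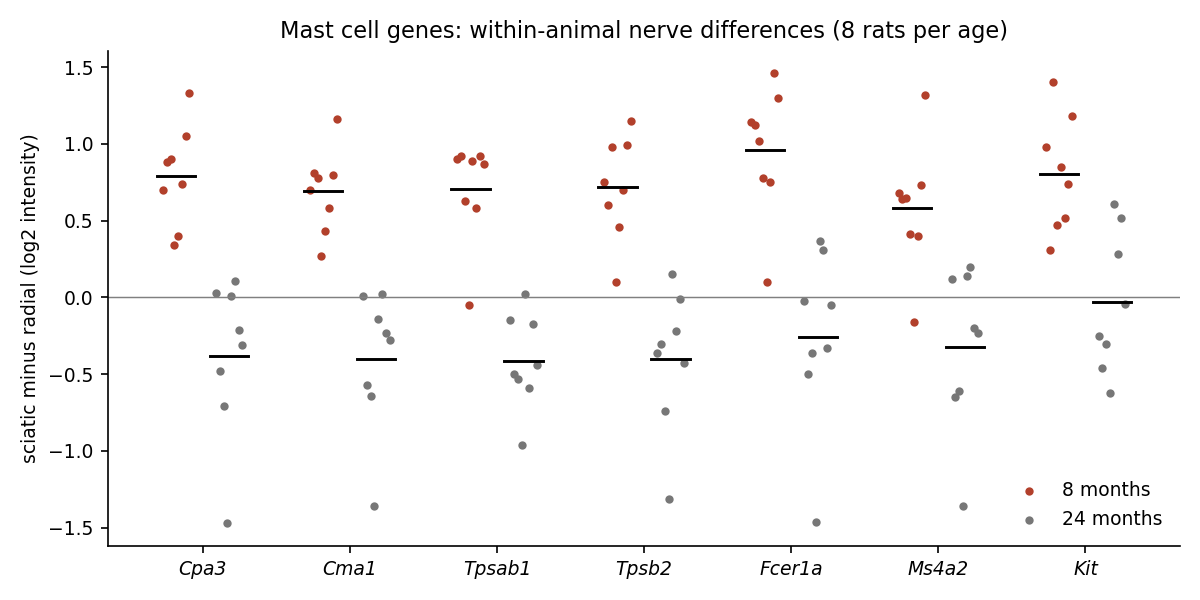
Sciatic minus radial difference in log2 intensity (y axis) of 7 mast cell genes in each of 8 rats aged 8 months and 8 rats aged 24 months (points) with the mean (bar). At 8 months most points lie above 0 and the means between 0.58 and 0.96; at 24 months the means lie between -0.42 and -0.03.

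Macrophage genes were also higher in the adult sciatic nerve, by less. Of 19 measured, 11 were higher and 0 lower, against 5.23% and 4.83% of all genes. The median was 0.33, with all 19 members above 0. Cd163, a scavenger receptor of resident macrophages, lay between 9.95 and 10.80 (median 10.51) in sciatic and between 9.58 and 10.14 (median 9.94) in radial nerves, and Aif1, a calcium-binding protein of macrophages, between 10.04 and 10.52 (median 10.24) and between 9.48 and 10.00 (median 9.83). Cd163 overlapped between nerves and Aif1 did not, but its second, dimmer probe set showed -0.06 ± 0.10. Cd163 was higher by 0.55 ± 0.09 (adjusted p = 0.00869), Mrc1, the mannose receptor, by 0.54 ± 0.11, Aif1 by 0.50 ± 0.09 and Cd68 by 0.47 ± 0.09, each in 8 of 8 animals. The count of 11 depended on the animals and the fit. It was 4 without replicate 3, 5 without replicate 2, 6 without replicate 7, 7 without replicate 1 or 8, 4 without the 3 animals with disagreeing labels, 0 when all 32 arrays were fitted with animals as a random effect, and 0 with the muscle covariate (median 0.30). At 24 months 0 of 19 were called at a median of -0.03, and no macrophage gene passed the test of the difference between ages. The C-type lectin gene Cd209f was higher by 1.30 ± 0.10 (adjusted p = 0.000155) with no overlap at 8 months and stood at -0.13 ± 0.45 at 24 months, and the difference between ages did not pass (1.44, adjusted p = 0.268).

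Complement genes were higher in the sciatic nerve at both ages. Of 13 measured, 8 were higher and 0 lower in adults (against 5.23% of all genes called higher), with a median of 0.34 and all 13 above 0. At 24 months 5 were higher and 0 lower at a median of 0.33 (against 1.95% of all genes called higher). Masp1, a protease of the lectin pathway, lay between 9.66 and 10.28 (median 9.87) in sciatic and between 8.84 and 9.52 (median 9.10) in radial nerves, and Cfb, factor B of the alternative pathway, between 10.74 and 11.27 (median 11.06) and between 9.88 and 10.67 (median 10.33). Neither gene overlapped between nerves. Masp1 was higher by 0.80 ± 0.09 (adjusted p = 0.00183), although its 2 dimmer probe sets were not called (-0.00 and -0.38), and Cfb by 0.75 ± 0.10 (adjusted p = 0.0036). C6, C3, C2 and Cd55 were higher by 0.71, 0.69, 0.50 and 0.47. C3 was not called without replicate 3 (adjusted p = 0.0519). Under the muscle covariate 0 were called at a median of 0.42, in the arrays low in muscle 2 (Masp1 and Cfb), and without the 3 animals 3. Lymphocyte genes showed 0 of 17 called in limma (5 at an unadjusted p under 0.05), with a median of -0.15. Of 7 blood cell genes 3 were lower, against 4.83% of all genes. They were the erythroid genes Alas2 (-1.46 ± 0.28, adjusted p = 0.0139), Ahsp (-0.96 ± 0.22) and Slc4a1 (-0.59 ± 0.14). The count was 1 without replicate 1, 2, 3 or 4 (adjusted p up to 0.065 for Ahsp and 0.0838 for Slc4a1). Of these genes 0 were called with the muscle covariate and 1 in the arrays low in muscle.

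**Figure D5:**
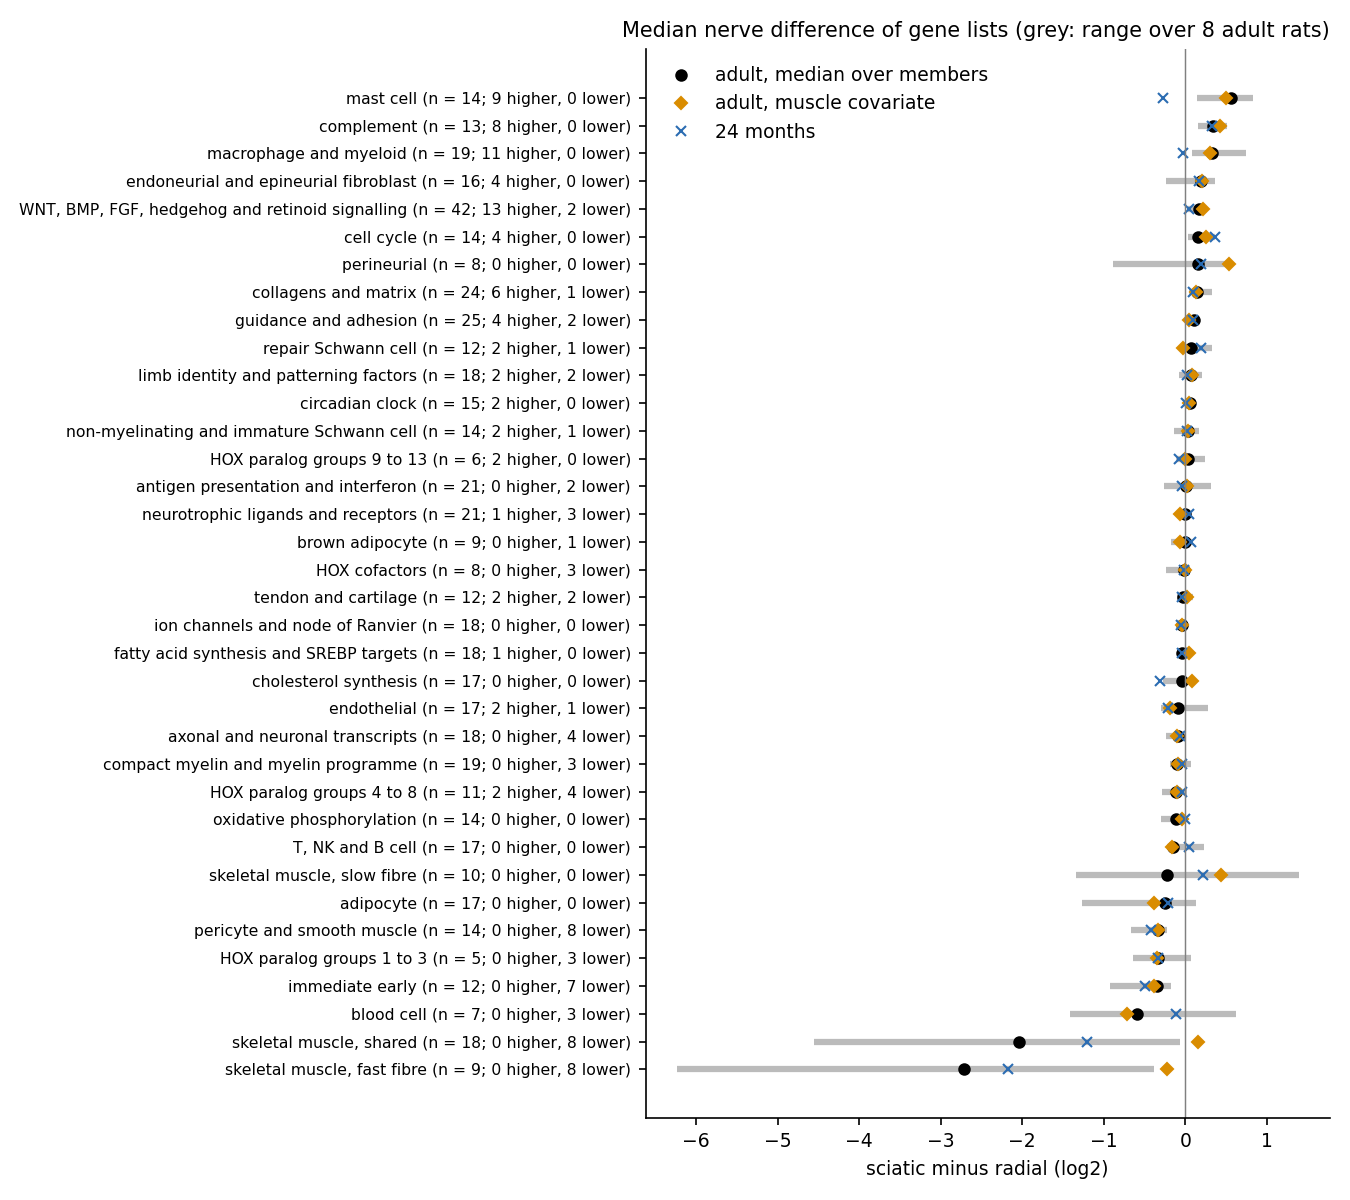
Median sciatic minus radial difference (log2) over the measured members of 36 gene lists in adult rats (black circles), with the muscle mean as covariate (orange diamonds) and at 24 months (blue crosses), with the range of the median over the 8 adult rats in grey. Mast cell genes stand highest at 0.56 and fast-fibre muscle genes lowest at -2.72; the covariate was built from the shared skeletal muscle list, so the shift of the muscle lists under it is no result.

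Some fibroblast, matrix and signalling genes were higher in the sciatic nerve, against 5.23% of all genes. Of 16 fibroblast genes 4 were higher and 0 lower (median 0.19, and 8 higher without replicate 5): Sfrp2 and Sfrp4, secreted WNT inhibitors, by 0.73 ± 0.11 (adjusted p = 0.00582) and 0.46 ± 0.08, Pi16 by 0.59 ± 0.11 and Pdgfra by 0.31 ± 0.06. Of 24 matrix genes 6 were higher, among them Fmod (0.62 ± 0.12), Comp (0.54 ± 0.12) and Prelp (0.41 ± 0.08), and 1 was lower, elastin (Eln, -0.55 ± 0.09, adjusted p = 0.00695). Comp was not called without replicate 2 (adjusted p = 0.0536). Elastin is a protein of arterial walls, and it lay between 10.42 and 11.40 (median 11.08) in sciatic and between 11.08 and 11.91 (median 11.58) in radial nerves, lower in 8 of 8 animals with overlap between the groups. The fibrillar collagen genes Col1a1, Col1a2 and Col3a1 were not called, at 0.09 to 0.10. Under the muscle covariate neither list had a called member (medians 0.20 and 0.13).

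Of 42 genes of WNT, BMP, FGF, hedgehog and retinoid signalling, 13 were higher and 2 lower (median 0.17), and leaving out 1 animal gave between 8 (without replicate 4) and 15 higher, with 9 without replicate 1, 2, 3 or 8. Adding the covariate left 1 higher and 1 lower, and in the arrays low in muscle 4 and 1. Fgf18 lay between 6.31 and 7.34 (median 6.84) in sciatic and between 5.46 and 6.56 (median 5.82) in radial nerves and was higher by 0.88 ± 0.13 (adjusted p = 0.00639). Of the 3 enzymes that make retinoic acid, Aldh1a3 and Aldh1a2 were higher, by 0.87 ± 0.17 (adjusted p = 0.0144) and 0.73 ± 0.12 (adjusted p = 0.00754), each in 7 of 8 animals, and Aldh1a1 was not called (0.22 ± 0.23, adjusted p = 0.599). Aldh1a3 was called with the muscle covariate (1.33, adjusted p = 0.0451) and without the 3 animals (1.08), and Aldh1a2 in neither (adjusted p = 0.214 and 0.062). The WNT inhibitor Dkk2 was higher by 0.73 ± 0.14 and the WNT agonist Rspo3 by 0.43 ± 0.09, the latter not called without replicate 1, 3, 4 or 8 (adjusted p up to 0.0645). The BMP antagonist Grem1 was lower by 0.38 ± 0.08 near the dim end of the array, and was not called without replicate 3, 4 or 8 (adjusted p up to 0.0573).

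Of 25 guidance genes 4 were higher and 2 lower, 24.0% called against 10.1% of all genes. The number higher was 2 without replicate 1, 2, 3, 4 or 8, and the number lower was 1 without replicate 1, 2, 3, 7 or 8. Robo2, a receptor for SLIT proteins, lay between 5.93 and 7.61 (median 7.06) in sciatic and between 5.00 and 6.75 (median 5.83) in radial nerves and was higher in 8 of 8 animals, by 1.10 ± 0.11 (adjusted p = 0.00127), while 2 dimmer probe sets showed 0.20 and 0.21 and were not called. Called SLIT genes went both ways. Slit3 was lower by 0.42 ± 0.04 (adjusted p = 0.00153) with no overlap between nerves, at 10.14 to 10.49 against 10.51 to 10.88. Slit2 was higher by 0.27 ± 0.07 (adjusted p = 0.0416). Robo2 and Slit3 were both called with the muscle covariate (1.27 and -0.47) and in the arrays low in muscle (1.40 and -0.47). Sema3c, a semaphorin, was higher by 0.55 ± 0.07 (adjusted p = 0.0036).

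Of 19 myelin genes 0 were higher and 3 lower, 15.8% called against 10.1% of all genes (Drp2 by 0.28 ± 0.07, Sox10 by 0.26 ± 0.06 and Egr2 by 0.14 ± 0.04), and the count was 0 without replicate 1, 3, 4 or 8, 0 when all 32 arrays were fitted together, and 0 with the muscle covariate or in the arrays low in muscle. Of the other probe sets of Drp2, all dimmer, 1 was called (-0.62) and 3 were not (-0.11 to -0.01). Mbp stood at 14.14 to 14.21 in sciatic and 14.11 to 14.21 in radial nerves and Pmp22 at 14.42 to 14.50 and 14.44 to 14.47, with differences of -0.00 ± 0.03 and 0.01 ± 0.03. These probe sets lay near the highest value of any adult array (14.6), so the small differences say little about their transcripts. Of 17 genes of cholesterol synthesis 0 were called in limma (1 at an unadjusted p under 0.05), with differences between -0.10 and 0.14. Of 18 genes of fatty acid synthesis 1 was higher, the elongase gene Elovl5 (0.33 ± 0.08, adjusted p = 0.0306), and 0 were called with the muscle covariate, while the desaturase gene Scd stood at 0.85 ± 0.32 (adjusted p = 0.122). At 24 months 6 of the 17 cholesterol synthesis genes were called lower (median -0.31), against 1.59% of all genes. Idi1, an enzyme of cholesterol synthesis, differed by -0.01 ± 0.06 in adults and by -0.82 ± 0.11 at 24 months. Its difference between ages was called in limma (0.81, adjusted p = 0.0262). It was not called without the 3 animals with disagreeing labels (adjusted p = 0.0882), without the animal block (0.0699) or in the arrays low in muscle (0.311). Of 18 ion channel and node genes, 8 perineurial genes, 17 adipocyte genes and 14 genes of oxidative phosphorylation, 0 were called, with 2, 0, 4 and 8 at an unadjusted p under 0.05 in limma. With replicate 5 left out, 4 of the 8 perineurial genes were called higher.

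Axonal transcripts were lower in the sciatic nerve in part. Of 18 neuronal genes 4 were lower and 0 higher, against 4.83% and 5.23% of all genes. These were the 3 neurofilament genes Nefh (-1.13 ± 0.17, adjusted p = 0.00632), Nefl (-0.92 ± 0.17) and Nefm (-0.65 ± 0.13) and Stmn2 (-0.67 ± 0.13). Each was lower in 8 of 8 animals and called without any 1 animal. Nefh lay between 6.27 and 7.31 (median 6.76) in sciatic and between 7.21 and 8.59 (median 7.82) in radial nerves, overlapping slightly. With the muscle covariate Nefh, Nefl, Nefm and Stmn2 stood at -0.82, -0.58, -0.45 and -0.71 and none was called, and in the arrays low in muscle Nefh was (-1.18, adjusted p = 0.00402). Chat, Th and Calca, which mark motor, sympathetic and sensory fibres, were not called and lay between -0.23 and 0.10, but Chat and Th were dim, with means over the 16 arrays of 4.38 and 5.08. Npy, a neuropeptide of sympathetic neurons that is in no list, lay between 7.47 and 9.22 (median 8.02) in sciatic and between 9.53 and 11.05 (median 10.00) in radial nerves, without overlap. It was lower by 1.88 ± 0.21 (3.67-fold, adjusted p = 0.00209), by 2.27 with the muscle covariate (adjusted p = 0.0346), and by 1.86 ± 0.08 at 24 months.

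Of 12 Schwann cell genes of the repair state 2 were higher, 1 was lower and 9 were not called (median 0.07). That is 25.0% called, against 10.1% of all genes. Igfbp2 encodes a binding protein for insulin-like growth factors. It lay between 6.00 and 6.54 (median 6.32) in sciatic and between 6.39 and 8.35 (median 7.65) in radial nerves. It was lower by 1.24 ± 0.19 (adjusted p = 0.00645) and was called with the muscle covariate (-1.67, adjusted p = 0.0494), in the arrays low in muscle and without the 3 animals. The transcription factor gene Olig1 was higher by 0.42 ± 0.08 in 8 of 8 animals, and Shh by 0.41 ± 0.09, the latter not called without replicate 2, 3, 4, 7 or 8 (adjusted p up to 0.0627). Of 14 genes of non-myelinating and immature Schwann cells 21.4% were called, against 10.1% of all genes. The adhesion genes Chl1 and Cdh2 were higher, by 0.45 ± 0.08 (adjusted p = 0.0091) and 0.35 ± 0.08, and Cadm4 was lower by 0.70 ± 0.18. Cdh2 was not called without replicate 1, 2 or 8 (adjusted p up to 0.06) and Cadm4 without replicate 1, 2, 3, 4, 5, 7 or 8 (adjusted p up to 0.0877), and 0 of the 14 were called with the muscle covariate or in the arrays low in muscle. Of 14 cell cycle genes 4 were higher, against 5.23% of all genes. They were Rrm2 by 0.60 ± 0.11, Top2a and Mki67 both by 0.43 and Cdk1 by 0.40 ± 0.07. In this list 0 were called without the 3 animals with disagreeing labels, with the muscle covariate or in the arrays low in muscle. When all 32 arrays were fitted together 1 was called. The count was 2 without replicate 4, where Mki67 and Top2a were lost (adjusted p up to 0.0563 and 0.0719). Dimmer probe sets of several called genes were of the same sign but not called, among them those of Top2a (0.11), Sfrp4 (0.11), Cdh2 (0.20), Slc4a1 (-0.23) and Abcc9 (-0.19). For Slc18a2, 1 dimmer probe set was called (0.47, adjusted p = 0.0322) and 1 was not (0.26).

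Several secreted and metabolic genes outside the lists were also among the highest. Akr1c3, an aldo-keto reductase, was higher by 1.71 ± 0.33 (adjusted p = 0.0149, and 0.0655 without the 3 animals), the matrix protease Mmp3 by 1.70 ± 0.16 (adjusted p = 0.000759), the lymphatic growth factor Vegfd by 1.54 ± 0.14 (adjusted p = 0.000759), the chemokine Cxcl14 by 1.34 ± 0.12 and prostaglandin E synthase Ptges by 1.13 ± 0.19. Vegfd lay between 9.33 and 10.41 (median 9.97) in sciatic and between 7.70 and 8.90 (median 8.38) in radial nerves. Vegfd, Cxcl14 and Ptges did not overlap between nerves, while Mmp3 and Akr1c3 did. Vegfd was called with the muscle covariate (1.93) and in the arrays low in muscle (1.60). The metalloreductases Steap1 and Steap2 were higher by 1.08 ± 0.09 and 0.89 ± 0.07, Arg1, arginase, by 1.12 ± 0.09, and the matrix protein gene Spon1 by 0.91 ± 0.08, all 4 called with the muscle covariate, in the arrays low in muscle and without any 1 animal.

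Of the lowest genes outside the muscle lists, albumin (Alb) differed by -2.42 ± 0.59 and was lower in 8 of 8 animals, at -5.92, -4.42 and -3.71 in replicates 3, 1 and 8 and between -1.84 and -0.67 in the others, and it was not called without replicate 1, 3 or 8 (adjusted p up to 0.0838) or without the 3 animals (adjusted p = 0.0721). Nor was Alb called with the muscle covariate (-2.97, adjusted p = 0.222) or in the arrays low in muscle (-3.03, adjusted p = 0.0601), and with the fat covariate it stood at -1.45 (adjusted p = 0.0169). Hjv, the BMP co-receptor of liver and skeletal muscle, was lower by 2.76 ± 0.72, lost its call without replicate 1, 2, 5, 6, 7 or 8 (adjusted p up to 0.102) and stood at 0.04 with the muscle covariate. Genes that were lower and kept their size with it were Spink8, a protease inhibitor (-2.17 ± 0.17, and -2.60 with it), Agr2 (-1.66 ± 0.18 and -2.07), the matrix gene Hmcn2 (-1.52 ± 0.10 and -1.28), Pcp4, a calmodulin regulator (-1.50 ± 0.09 and -1.50), the transcription factor gene Gata6 (-1.02 ± 0.09 and -0.96) and the opioid precursor gene Penk (-0.66 ± 0.05 and -0.75). These were all called in both fits, and all but Penk had no overlap between nerves. The other probe sets of Gata6, both dimmer, were not called (-0.12 and 0.01). Hmcn2 and Pcp4 lay at 7.43 to 8.65 and 7.87 to 8.76 in sciatic against 9.39 to 9.95 and 9.51 to 10.24 in radial nerves.

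The adult differences were set beside those of the 8 rats aged 24 months, which share no array with them. Of the 1351 genes called in adults, 1180 (87.3%) had the same sign at 24 months. No such share over all genes is given here to set beside it. Of the same 1351 genes, 191 were called at both ages with the same sign and 2 with opposite signs. At 24 months 476 genes (3.54%) were called. Of the position genes at 24 months, Hoxc9 stood at 2.85 ± 0.09, Hoxc8 at 1.57 ± 0.08, Hoxb2 at -1.09 ± 0.06, Hoxb4 at -0.97 ± 0.06 and Tbx5 at -2.16 ± 0.15, all called, and none passed the test of the difference between ages (adjusted p of 0.117 for Hoxc9 and 0.604 to 0.961 for the others). Hoxa10 stood at 1.11 ± 0.27 and was not called at 24 months (adjusted p = 0.0534), nor were Hoxc4, Hoxb5 and Hoxa5 (adjusted p of 0.106, 0.232 and 0.577). Actg2 and Cnn1 stood at -1.71 ± 0.54 and -1.82 ± 0.44 and were not called at 24 months (adjusted p of 0.11 and 0.0532), and the differences between ages did not pass (adjusted p of 0.619 and 0.652). Of 12 immediate early genes 6 were lower at 24 months as well (1.59% of all genes were), and Fosb differed by -2.82 ± 0.37. In all, 43 probe sets and 21 genes passed the test of the difference between ages. Of the 21, 12 were called in adults, against 10.1% of all genes, but the adult difference enters both tests.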

How the data were processed

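RNA from the sciatic and radial nerve of each rat was hybridised to 1 Affymetrix rat expression array of perfect-match probes, after extraction with Qiagen miRNeasy and biotin labelling. The deposited log2 intensities were made by the authors with RMA in Affymetrix Expression Console (version not given in the sources used here), which corrects background, normalises by quantiles and summarises probe sets; this equalises array medians, so that changes shared by most genes are removed. From the 31139 probe sets 97 controls were left out. Nerve and animal were taken from the titles. A linear model with the animal as a fixed term was fitted with limma 3.58.1 (R 4.3.3), with empirical Bayes moderation, two-sided tests and Benjamini-Hochberg adjustment over 31042 probe sets, and called at an adjusted p under 0.05. All p values given come from these limma fits. The same fit was made for the 24-month animals, and the difference between ages was tested as an interaction over all 32 arrays. The study's own model, with animals as a random effect over all arrays, was an alternative, with consensus correlation 0.148. The arrays low in muscle transcripts, of both ages, were also fitted with animals as a random effect.

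Same-numbered arrays come from the same animal, and deviations from the group means correlated between the nerves of an animal at 0.119 to 0.545. Of the probe sets, 19063 had 1 gene symbol, 572 several and 11407 none in the platform annotation. A gene was represented by its probe set with the highest mean over the 16 adult arrays. The genes named are the 12 highest and 12 lowest called differences with the same sign in 8 of 8 animals, every HOX gene and limb factor measured, up to 4 called members with the smallest adjusted p in every other list, cell type markers given as checks, and further genes chosen after their values were seen (among them Npy, Spink8, Agr2, Hmcn2, Pcp4, Gata6, Penk, Arg1, Steap1, Steap2, Spon1, Kit, Aldh1a3 and Idi1). The members and the 36 lists were chosen with earlier results of these data known, so lists are described by counts and medians and given no test. Of 644 list entries 552 had a probe set. The fits were tested on simulated data. Precision is limited by the number of arrays, and labels do not give litters or days.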

Additional observations from a re-analysis of the deposited data

Results flagged for a closer look

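In 12 of 139 called genes tested, 1 animal's sciatic minus radial difference lay far from those of the other 7 animals (a gap to the nearest value of more than 0.526 of the whole range, which chance gives in about 1 in 20). Replicate 6 was that animal for the immediate early genes Egr1 (-1.45), Ier2 (-1.32) and Atf3 (-0.97) and for Pbx3 (0.01). Replicate 2 was for Pdgfra (0.70) and Fbn1 (0.56), and replicate 5 for Igfbp2 (0.08), Npy (-0.31) and Aldh1a3 (-0.38). The remaining 3 were Acta1 in replicate 1 (-7.15), Aldh1a2 in replicate 7 (-0.06) and Tpsab1 in replicate 4 (-0.05).

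The nerve difference at 8 months minus that at 24 months passed the limma interaction test for 5 mast cell genes, Fcer1a at 1.21 (adjusted p = 0.0495), Cpa3 at 1.17 (adjusted p = 0.0275), Tpsb2 at 1.12 (adjusted p = 0.0235), Tpsab1 at 1.12 (adjusted p = 0.0148) and Cma1 at 1.09 (adjusted p = 0.0218). It also passed for Fgf5, a fibroblast growth factor, at -1.40 (adjusted p = 0.0495), which differed by 0.05 in adults and 1.45 at 24 months, and for Idi1 at 0.81 (adjusted p = 0.0262). Fgf5 was not called with a random block (adjusted p = 0.0518), the muscle covariate (0.0757), without the 3 animals with disagreeing labels (0.0882), without pairing (0.152) or in the arrays low in muscle (0.573), and of these alternatives Idi1 was called with the first 2 (0.0188 and 0.0428). With a random block 2 of the 5 mast cell genes were called.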

How the results depend on the processing

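Of 2786 probe sets called (1672 higher, 1114 lower), 1518 (934 and 584) were called without the 3 animals with disagreeing labels and 0 (0 and 0) in limma when nerves were taken from the source name, with 1322 at an unadjusted p under 0.05. A muscle covariate left 67 (30 and 37), a fat covariate 1286 (791 and 495), both covariates 17 (9 and 8), and the arrays low in muscle 515 (247 and 268). With 1 probe set per gene 1685 were called (853 higher), at an adjusted p under 0.01 550 (355 and 195), and with a difference above 1 161 (44 and 117). Leaving out 1 animal gave 1365 (without replicate 8) to 3026 (without replicate 5), 861 to 1827 higher and 504 to 1215 lower. The counts of the other alternatives, on the model, filters, weights and scaling, stayed within 1.5 times. The probe sets called were in part others. Of the 2786, 1865 were called when all 32 arrays were fitted with a random block. With a random block on the adult arrays 2344 were, and without the animal block 1981. Median centring gave 1802 higher and 1011 lower. Without the animal block, that is without pairing, 2426 were called.

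The count of the difference between ages, 43, was 2 without pairing, 108 with a random block, 27 with the muscle covariate, 24 without the 3 animals and 9 in the arrays low in muscle. Signs turned under the muscle covariate for Mybpc2 (0.06) and Hjv (0.04), and under both covariates for Mybpc2 (0.01), Tnnc2 (0.46) and Myl11 (0.24). In the arrays low in muscle they turned for Mybpc2 (0.19), Atp2a1 (0.12), Hjv (0.13), Tnnc2 (0.17), Myl11 (0.29), Eno3 (0.06) and Actn3 (0.15). All these fits rest on the mean of the shared muscle genes, so turned signs of muscle genes in them are no result. With nerves from the source name signs turned for Hoxa10 (-0.03), Meis2 (0.01), Pitx1 (-0.07), Comp (-0.09), Mki67 (-0.05) and Dbp (-0.04). Of 139 called genes that were named, 95 kept the call without any 1 animal and 44 lost it without at least 1; the cause was not tested. Dim probe sets such as Tbx5 in the sciatic nerve limit fold changes from below.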
